A study of Bos taurus with 13 samples.

Results

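*SDS* and *A2M* are genes best known from the liver, and their RNA was followed in whole blood of dairy cows that differed in the cortisol of their milk. They are 2 of the 16095 genes that the count tables name. Both were taken up because earlier results of the same data showed them to be abundant in blood, so their levels are given below as a description and are not tested. *SDS* encodes serine dehydratase, an enzyme that uses pyridoxal phosphate to turn serine into pyruvate and ammonia and that can also act on threonine. In the liver this step feeds amino acid carbon into gluconeogenesis, and in rodents the enzyme is raised by glucagon, by glucocorticoids and by protein-rich diets. *A2M* encodes alpha-2-macroglobulin, a large secreted plasma glycoprotein made mainly by hepatocytes, and also by macrophages. It carries a thioester bond and a bait region, closes around proteases that cut the bait, and the complex is then taken up through the receptor *LRP1*.

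Blood of 13 lactating Italian Red Pied cows (the study itself calls the breed Italian Simmental) was drawn from the tail vein into PAXgene tubes, which stabilise RNA at sampling, and sequenced with no removal of globin RNA. No treatment is named, and the cows belonged to 1 herd of clinically healthy animals. Of these, 7 had high and 6 had low cortisol in milk. The labels number the high cows 1 to 7 and the low cows 8 to 13, and these numbers are used below. The groups were set by the rank of milk cortisol in the herd, so they were observed rather than made, and cortisol of single cows was not used here. The study selected 10 cows for each group, and the counts of cows beyond these 13 were not analysed here.

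Named genes received 12198355 to 23709740 counts in a high cow (median 18595924) and 11045599 to 28124575 in a low cow (median 17005347). A count of 0 allows up to 3 counts, which is 0.107 to 0.272 CPM (counts scaled to equal library size) at these depths and covers counting error only. The labelled tissue was checked against its defining markers. By median TPM, a level that also corrects for gene length, the neutrophil gene *S100A9* stood at 3825, the granulocyte receptor gene *CSF3R* at 2159, the T cell gene *CD3E* at 1316, the B cell gene *CD79A* at 1066 and the haemoglobin gene *HBB* at 1147. No library was a copy of another.

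On the UMD3.1 build used by the count tables, *SDS* lies at chr17:63302947-63311098 on the plus strand, with 8 exon records covering 1544 bases. *A2M* lies at chr5:101298127-101346611 on the plus strand, with 37 exon records covering 4780 bases. Reads of both were counted over exons, with no option for strand in the headers. No other named gene and no unnamed gene of the tables had an exon over the exons of either.

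*SDS* was among the most abundant messages in the blood of every cow. In the high group its CPM had a lowest value of 6970 in cow 4, a median of 11858 and a highest value of 17913 in cow 2. In the low group the lowest value was 11377 in cow 9, the median 16664 and the highest 23073 in cow 10. The cow with the most *SDS* therefore had 3.31 times the CPM of the cow with the least, and no cow of either group was without it. As a share of all named counts, *SDS* took between 0.764% in cow 4 (95% Wilson interval 0.759% to 0.768%) and 2.19% in cow 10 (2.18% to 2.19%), with a median of 1.35%. These intervals cover counting error only, and they are far narrower than the spread between cows.

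By raw counts *SDS* ranked 1 among all named genes in 6 of the 13 cows, namely cows 2, 6, 8, 10, 11 and 13, and never lower than 4. On the TPM scale, its level lay between 7973 and 22899 with a median of 14232. By median TPM only *CD74*, the invariant chain of MHC class II, stood above it at 16090. *B2M*, the light chain of MHC class I, followed at 13363, and the translation factor gene *EEF1A1* at 10061. The rank of *SDS* by TPM was 1 in 4 cows, 1 or 2 in 8 cows, and 7 at the lowest, in cow 4.

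*A2M* was clearly present in every cow but at a much lower level. In the high group its CPM ran from 365 in cow 7 through a median of 436 to 866 in cow 2. The low group ran from 447 in cow 11 through a median of 618 to 908 in cow 8. Cows 2 and 8, 1 of each group, thus stood above the rest, and the highest cow had 2.49 times the CPM of the lowest. *A2M* took 0.0387% to 0.0844% of the named counts, from 6524 to 23724 counts per cow. Its TPM of 125 to 299, with a median of 189, put it at rank 847 of all named genes by median TPM, above 92.3% of the 11033 genes that passed the filter for testing, whose median was 19.9. "Abundant in blood" therefore holds for *SDS* at the very top of the order, and for *A2M* in a weaker sense.

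Per length, *SDS* stood 51.8 to 121 times as high as *A2M* within a cow, with a median of 71.3 times. The ratio was 64.6 in the median high cow and 76.7 in the median low cow. It was lowest in cow 4 and highest in cow 10, the same cows that had the least and the most *SDS*. Both genes varied more between cows than most: the SD of log2 CPM was 0.48 for *SDS* and 0.42 for *A2M*, larger than in 76.8% and 68.9% of the genes tested.

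**Figure D1:**
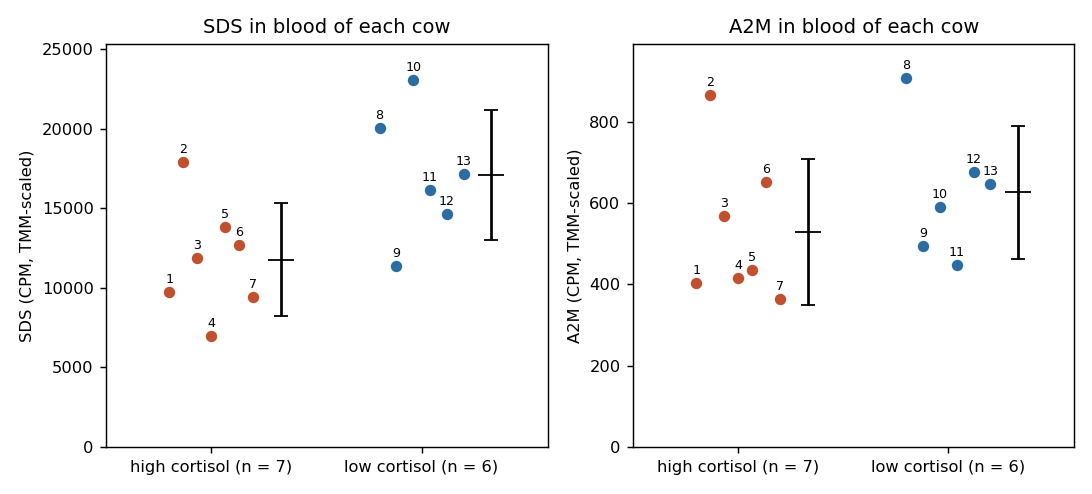
CPM of *SDS* (left) and *A2M* (right) in each of the 13 cows, 1 point per cow with its number, for the high and low cortisol groups on the horizontal axis; the bars give the mean and SD of each group. *SDS* runs from 6970 to 23073 CPM and *A2M* from 365 to 908 CPM, and the ranges of the groups overlap for both genes.

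Messages typical of hepatocytes were at or near 0 in the same libraries. Of 30 liver genes listed, 27 are named in the tables. Of these, 6 had no count in any cow, among them *APOB* of lipoproteins and *FGG* of fibrinogen, 11 (those 6 included) never exceeded 3 counts in a cow, and 17 had a median of 0 counts. *ALB*, the albumin gene, had 8 counts over all 13 cows together and was at 0 in 10 of them. *TTR*, which encodes transthyretin, had 4 counts, all in 1 cow. Among the other secreted proteins, *APOA1* had 21 counts and the fibrinogen gene *FGB* had 8.

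The same held for liver enzymes that, like *SDS*, are regulated by glucocorticoids and fasting. *TAT*, tyrosine aminotransferase, had 10 counts in all, and *PCK1*, the rate-limiting enzyme of gluconeogenesis in the cytosol, had 2 to 16 counts per cow. Other liver enzymes were uneven: the highest cow held 69 of the 96 counts of *HPD* (4.00 CPM) and 54 of the 88 of *TDO2* (3.13 CPM). The highest median TPM of any gene in the list was 0.627, for the transcription factor gene *HNF4A*, followed by 0.615 for *ARG1*, the arginase of the urea cycle. Only these 2 passed the filter on low counts, through which a gene could pass by being high in 1 group. The summed CPM of the whole list was 2.14 to 9.73 in the high cows and 2.24 to 5.70 in the low cows, against at least 6970 CPM for *SDS* alone.

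**Figure D2:**
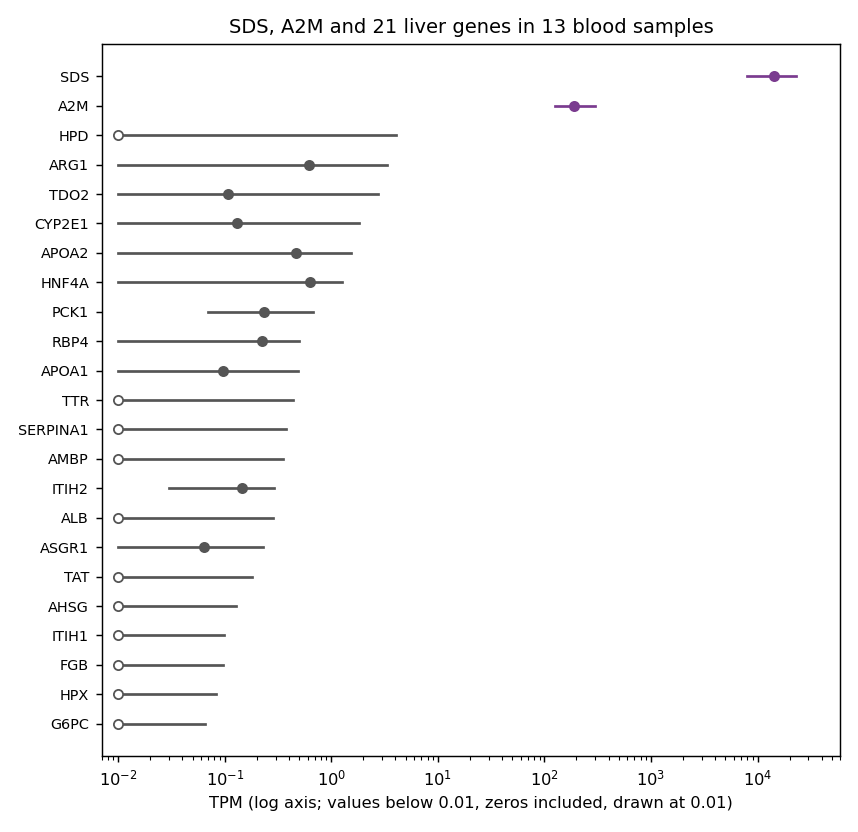
TPM of *SDS*, *A2M* and the 21 liver genes with at least 1 count in any cow on a log axis; points give the median and lines the range over 13 cows, and open points mark a median of 0, drawn at 0.01. *SDS* (median 14232) and *A2M* (189) stand apart from the liver genes, of which the highest median is 0.627 for *HNF4A*.

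The comparison that the study was built on is that of high with low milk cortisol. *SDS* was lower in the high group, at 11761 ± 3545 CPM (SD, n = 7) against 17075 ± 4094 (SD, n = 6), but this difference did not survive correction over all genes. In 6 of the 7 high cows *SDS* was below the median of the low group, and in 3 it was below the lowest low cow. Cow 2 was the exception in the high group, while 2 low cows stood above every high cow. With edgeR the log2 fold change of high against low was -0.54 ± 0.20 (SE), with an edgeR p of 0.0166 unadjusted and 0.999 after Benjamini-Hochberg adjustment.

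No gene passed that adjusted threshold: 0 of 11033 (0%) were called by edgeR, against 231 at an unadjusted p below 0.05, of which 103 were higher and 128 lower in the high group. That is fewer genes than an unadjusted threshold of 0.05 lets through on average when no gene differs. The smallest adjusted p of any gene was 0.999, so the unadjusted values given below for single genes are all without a call. *SDS* is 1 of those 128, which make up 1.16% of the genes tested, and *A2M* is not. limma-voom called 0 genes as well (218 unadjusted), and DESeq2 called 1 gene, *CYP4X1* (348 unadjusted), which is named here after its value was seen. DESeq2 gave *CYP4X1* an extreme log2 fold change of 21.3, and neither edgeR nor limma-voom called it. The study also lists *SDS* among genes it selected on cows that include these, so the present value is not independent evidence of its direction. It called genes with DESeq2 at a corrected p of 0.05, whereas DESeq2 gave *SDS* an adjusted p of 0.9999 in the cows used here.

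For *A2M* the means were 530 ± 180 CPM (SD, n = 7) in the high and 627 ± 163 (SD, n = 6) in the low group. Here 5 of the 7 high cows were below the low median and 4 were below the lowest low cow, but cows 2 and 6 were above that median. The log2 fold change was -0.24 ± 0.21 (SE), with an edgeR p of 0.255 unadjusted and 0.999 adjusted, so the difference was within the spread between cows. The median log2 fold change of all genes tested was 0.01.

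Exact permutation of the group labels, two-sided and through all 1716 splits of the 13 cows, cannot give a p below 5.828e-04, and it gave p = 0.0315 for *SDS* (difference of mean log2 CPM -0.56), or 0.0944 adjusted over the 3 measures tested. *A2M* gave p = 0.264 (difference -0.27) in the same exact test. The third measure, the log2 ratio of *SDS* to *A2M*, differed by -0.29 with an exact p of 0.149, so a difference between the responses of *SDS* and *A2M* was not shown.

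Scores of gene lists also differed in their means between the groups, none of them past adjustment over the 15 lists. The score of a list is the mean over its tested genes of centred log2 CPM. The interferon response score, of genes induced in white cells by interferons, was lower by 0.72 in the high group (exact p = 0.0991, adjusted 0.495). All 13 of its tested genes had a log2 fold change below 0, 4 of them at an unadjusted p below 0.05, where 1.16% of all genes tested were lower, and its summed CPM ran from 1703 to 5483 in the high cows and from 2186 to 9721 in the low cows. The erythroid score was higher by 0.81 in the high group (exact p = 0.0204, adjusted over 15 lists 0.306), with a summed CPM of 410 to 8371 against 168 to 639 over the 12 genes named. The basophil and mast cell score was higher by 0.39 (exact p = 0.0507), with a summed CPM of 38.6 to 69.2 against 25.9 to 44.3. The neutrophil score was lower by 0.23 (exact p = 0.175, adjusted 0.601), with a summed CPM of 6118 to 11326 against 9023 to 11665. The part of basophil and mast cell genes in the difference of *SDS* was not tested.

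With the interferon response score as a covariate, chosen after the data were seen, the log2 fold change of *SDS* was -0.33 ± 0.21 (SE, edgeR p of 0.127). With the log2 haemoglobin share as a covariate it was -0.36 (edgeR p of 0.192), with the neutrophil score -0.45 (edgeR p of 0.0471), and with the monocyte score -0.55 (edgeR p of 0.0136). The same covariates gave 0.01, 0.08, -0.04 and -0.28 for *A2M*, so its sign turned under the first 2. In bulk blood, a smaller number of cells of a type and less RNA per cell cannot be told apart.

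**Figure D3:**
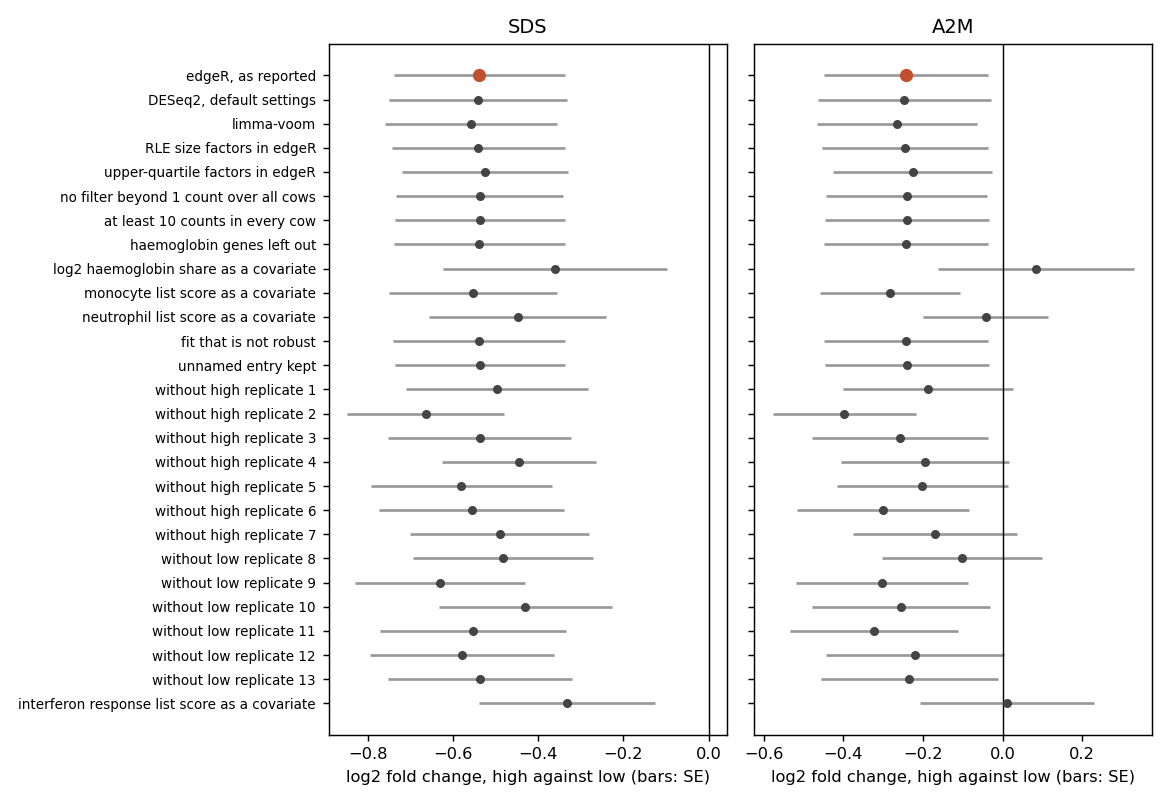
Log2 fold change of high against low cortisol for *SDS* (left) and *A2M* (right) under the reported edgeR fit (red) and 26 alternatives, with bars of 1 SE; the vertical line marks 0. *SDS* stays below 0 in all 26, between -0.66 and -0.33, while *A2M* lies between -0.40 and 0.08 and turns sign under 2 covariates.

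Across the 13 cows *SDS* and *A2M* varied together. Pearson's r of log2 CPM was 0.697 (permutation p = 0.00855) and Spearman's rho 0.747 (permutation p = 0.00456). Without cows 4 and 10, the farthest from the median of *SDS*, r was 0.778 (permutation p = 0.00597). Within the high group r was 0.772 (exact permutation p = 0.0397, n = 7). Within the low group it was 0.454 (exact permutation p = 0.369, n = 6), so in these 6 cows alone the relation was not shown. Cows 10 and 11 of the low group had the highest ratios of *SDS* to *A2M*, at 39.1 and 36.2 by CPM, while the other 11 cows lay between 16.7 and 31.6.

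The correlation was moderate when seen against other genes, since 5.23% of the genes tested followed *SDS* more closely than *A2M* did, and 2.87% followed *A2M* more closely than *SDS* did. Of the 100 genes closest to each, 12 were shared, which is 12% of either list. Correlations to all genes have no test here, since the points are the same 13 libraries throughout.

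To see which blood cells each gene follows, scores of 15 lists, namely 12 of cell types and 3 of the states interferon response, glucocorticoid response and proliferation, were set against each gene, giving 30 relations. After adjustment over these, no Pearson correlation passed 0.05 for either gene, and 2 for each were below 0.05 unadjusted. By Spearman's rho 1 relation of each passed, *A2M* with the neutrophil and *SDS* with the interferon response score. *A2M* came closest with the neutrophil score, at r = 0.779 (permutation p = 0.00168, adjusted 0.0504) and rho = 0.786 (permutation p = 0.00215, adjusted 0.0407). Without cows 5 and 7, the farthest from the median score, r was 0.697 (permutation p = 0.016). It was 0.905 within the high group (exact permutation p = 0.00575, n = 7) and 0.311 within the low group (exact permutation p = 0.558, n = 6), and the difference between the groups was not tested. The high cows spread from -0.58 to 0.48 in neutrophil score and the low cows from -0.12 to 0.32.

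Single neutrophil genes showed the same for *A2M*. Of the 11 tested, 7 had r of at least 0.5 to *A2M*, against 10.4% of all genes tested. *CSF3R*, the receptor for granulocyte colony-stimulating factor, had r = 0.837, *TGM3*, a transglutaminase abundant in cattle neutrophils, 0.824, *MMP25*, a membrane protease of neutrophils, 0.741, and *MMP9*, a gelatinase kept in their granules, 0.711. The calgranulin genes were less uniform, with *S100A9* at 0.579 but *S100A8* at -0.07 and *S100A12* at -0.01.

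The monocyte and macrophage lists, the circulating and tissue cells that *A2M* is known from, followed it less evenly. For the monocyte score r was 0.502 (permutation p = 0.0765) but -0.06 without cows 2 and 7. Of 9 monocyte genes, 2 reached 0.5, *CSF1R*, the receptor of macrophage colony-stimulating factor, at 0.775 and the lysosomal *CD68* at 0.771, while *CD14* had 0.473 and *CX3CR1* -0.43. In the macrophage list 1 of 7 reached 0.5, *SIGLEC1* at 0.515, and the score had r = 0.09. None of 4 eosinophil genes did, the highest being *ALOX15* at 0.296, with r = 0.17 for the score.

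Toward the other end, *A2M* ran against the erythroid score (r = -0.52, permutation p = 0.0683) and the cytotoxic and NK score (r = -0.47, permutation p = 0.102). Without the 2 cows farthest from the median score, these were -0.18 (permutation p = 0.601) and -0.49 (permutation p = 0.123). The strongest single genes were *EPB42*, a protein of the red cell membrane skeleton, at -0.79, and *FASLG*, the death ligand of cytotoxic lymphocytes, at -0.76. *EPB42* was low, with a median of 0.992 TPM. Both lists were divided: 3 of 7 erythroid and 3 of 10 cytotoxic and NK genes had r of -0.5 or less, against 8.77% of all genes tested. Their highest genes were *GATA1* at 0.234 and *GZMB* at 0.066. T cell (-0.41), B cell (-0.35), basophil and mast cell (-0.30) and plasma cell (-0.18) scores were also negative over all cows, with *TRAT1* (-0.66), *CR2* (-0.53) and *FCER1A* (-0.50) as the strongest genes of the first 3. Without the 2 cows farthest from the median score, T cells had -0.31 and plasma cells -0.17. B cells then had 0.002, and basophils and mast cells 0.25. The basophil and mast cell score had r = 0.488 within the high group (exact permutation p = 0.265, n = 7). Within the low group it had -0.81 (exact permutation p = 0.0486, n = 6). Platelet (0.05), proliferation (-0.07), dendritic cell (0.21) and glucocorticoid response (0.28) scores lay nearer to 0 or above it, and their strongest genes were *TUBB1* (0.270), *CDK1* (-0.49), *TCF4* (-0.32) and *SGK1* (0.535). *PRDM1*, of plasma cells, had 0.349.

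The list closest to *SDS* was not one of a cell type. It was the interferon response, with r = 0.662 (permutation p = 0.0135, adjusted 0.203) and rho = 0.775 (permutation p = 0.00271, adjusted 0.0407). Without cows 5 and 8, r was 0.701 (permutation p = 0.0161), and it was 0.543 in the high group (exact permutation p = 0.219, n = 7) and 0.557 in the low group (exact permutation p = 0.257, n = 6). Of the 13 interferon-induced genes 11 had r of at least 0.5 to *SDS*, against 17.2% of all genes tested, with *IFIT3* highest at 0.738. *A2M* had 9 of the 13 at 0.5 or more, again with *IFIT3* highest at 0.690, and r = 0.564 with the score (permutation p = 0.0446, adjusted 0.365), but 0.929 in the low group (exact permutation p = 0.00694, n = 6) and 0.149 in the high group (exact permutation p = 0.784, n = 7).

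The neutrophil score gave r = 0.477 with *SDS* (permutation p = 0.0999), and its genes were divided. *CSF3R* followed *SDS* at 0.909 and *MMP25* at 0.825, and 5 of 11 neutrophil genes reached 0.5, yet *S100A8* had -0.41 and *S100A12* -0.26. *CD68* was as close as *CSF3R*, at 0.909, and *CSF1R* had 0.619, whereas the other 7 monocyte genes stayed below 0.5 and the monocyte score had r = 0.15. For macrophages the score had r = 0.15, with *SIGLEC1* alone of 7 genes above 0.5 at 0.602, and for eosinophils 0.06 with none of 4, the strongest being *CEBPE* at 0.225.

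Among the remaining lists *SDS* ran most against basophils and mast cells (r = -0.55, permutation p = 0.0487, adjusted 0.365), where *FCER1A*, a chain of the IgE receptor, had -0.70. Of the 5 genes tested in that list, 1 had r of -0.5 or less, against 20.5% of all genes tested, and the highest had -0.04. For the score rho was -0.46 (permutation p = 0.115), and r was -0.40 (permutation p = 0.218) without cows 8 and 13. Within the high group r was -0.16 and within the low group -0.54. The erythroid score had r = -0.44, with its genes between *EPB42* at -0.70 and *GATA1* at 0.230. The T cell score had r = -0.24, but its genes split, from *CD3G* at -0.66 to *CD2* at 0.638. B cell (-0.18), cytotoxic and NK (-0.21), platelet (-0.21) and plasma cell (-0.08) scores were weakly negative over all cows, and dendritic cell (0.31), glucocorticoid response (0.20) and proliferation (0.11) scores weakly positive. For the cytotoxic and NK score r was -0.53 within the high group (exact permutation p = 0.217, n = 7) and 0.842 within the low group (exact permutation p = 0.0361, n = 6), so the signs were opposite. The strongest genes of these lists were *CR2* (-0.55), *FASLG* (-0.66), *PPBP* (-0.47), *PRDM1* (0.435), *CLEC10A* (0.473), *SGK1* and *CDK1* (-0.50). Of the 10 cytotoxic and NK genes, 2 had r of -0.5 or less to *SDS*, against 20.5% of all genes tested, and *CTSW* was highest at 0.309. Within the glucocorticoid response list, *SGK1*, a kinase induced by glucocorticoids, had r = 0.799 to *SDS*. Of the 13 genes in that list 2 reached 0.5, against 17.2% of all genes tested, and the lowest had -0.36.

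**Figure D4:**
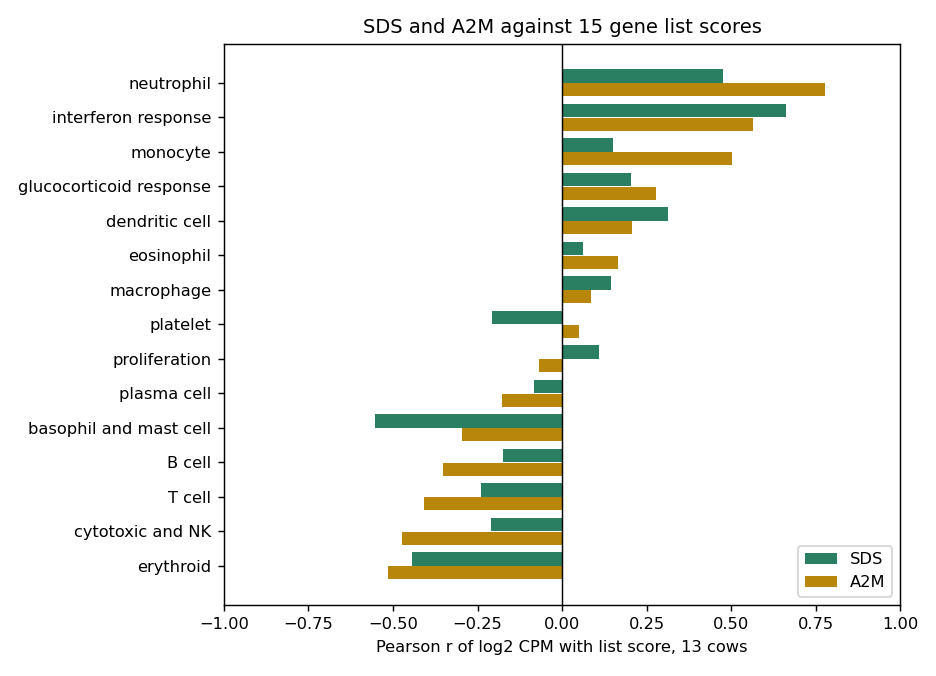
Pearson r over 13 cows between log2 CPM of *SDS* (green) or *A2M* (ochre) and the score of each of 15 gene lists. *A2M* is closest to the neutrophil score (0.779) and *SDS* to the interferon response score (0.662), and both are negative with the erythroid score.

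**Figure D5:**
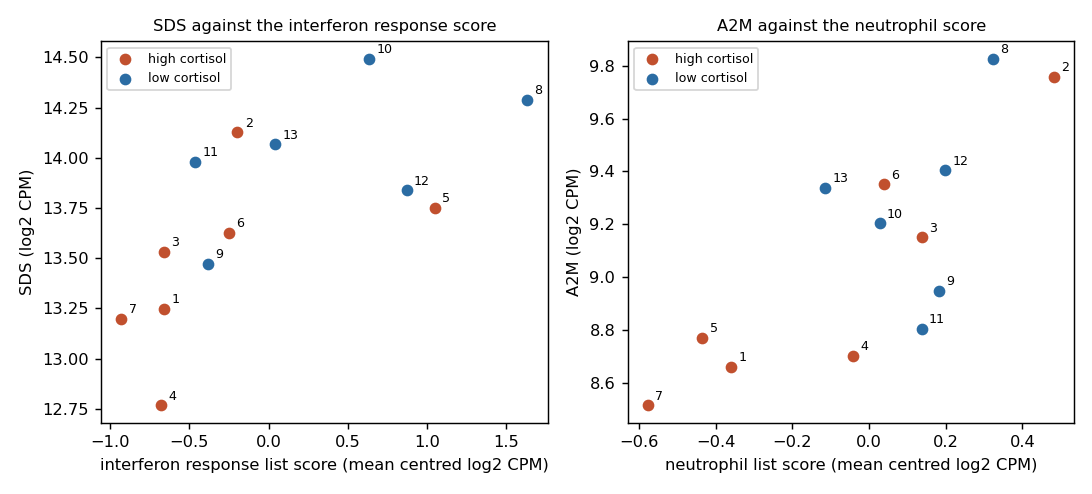
Log2 CPM of *SDS* against the interferon response score (left) and of *A2M* against the neutrophil score (right), 1 numbered point per cow, red for high and blue for low cortisol. Cows 8 and 5 have the largest interferon response scores and cows 7 and 5 the smallest neutrophil scores, and *A2M* is lowest in cow 7.

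Properties of the libraries were set beside the genes in the same way. The first principal component of log2 CPM, which held 29.0% of the variance, had r = 0.719 with *SDS* (permutation p = 0.00503, adjusted over 8 relations 0.0402; rho = 0.676) but 0.479 (permutation p = 0.135) without the 2 farthest cows, and 0.405 with *A2M* (permutation p = 0.170). The sign of this component was set to be positive with *SDS*, and *SDS* and *A2M* are among the genes it was built from. The log2 haemoglobin share had r = -0.54 with *SDS* (permutation p = 0.0594) and -0.56 with *A2M* (permutation p = 0.0469, adjusted 0.119), which was -0.29 (permutation p = 0.389) without the 2 farthest cows. The share of counts in the unnamed entry had r = -0.44 with *SDS* (permutation p = 0.132) and -0.57 with *A2M* (permutation p = 0.0408, adjusted 0.119), the latter -0.18 (permutation p = 0.603) without the 2 farthest cows. Depth had r = 0.288 with *SDS* (permutation p = 0.339) and -0.06 with *A2M* (permutation p = 0.837). Their part in the relations above was not tested.

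The genes closest to *SDS* over the 13 cows were ranked one by one. By r of log2 CPM the first was *UBAP1* (0.957), a subunit of the ESCRT machinery that sorts ubiquitinated cargo. *SELPLG* (0.943) encodes the ligand by which leukocytes bind P-selectin, *CYTH4* (0.928) an exchange factor for ARF proteins in leukocytes and *HCLS1* (0.923) an actin-binding substrate of Lyn in blood cells. *RELA* (0.915) is the p65 subunit of NF-kappaB, *PIAS1* (0.922) a SUMO ligase, and *PPARD* (0.914) a nuclear receptor for fatty acids. The rest of the first 10 were *PQLC1* (0.947), *TBC1D10B* (0.938), which acts on Rab proteins, and *CCDC97* (0.928). Log2 fold changes of these 10 ran from -0.49 (*PQLC1*, edgeR p of 0.0121 unadjusted, 0.999 adjusted) to -0.17 (*RELA*, edgeR p of 0.170 unadjusted). *SELPLG* had -0.48 (edgeR p of 0.0103 unadjusted, 0.999 adjusted), beside -0.54 for *SDS*. The 10 genes were picked for following *SDS*, so their shared sign is tied to that choice and is no separate support for its direction. A lower level in the high group was not particular to *SDS*. Of all genes tested, 128 (1.16%) were lower there at an unadjusted edgeR p below 0.05.

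None of these 10 approached the abundance of *SDS*, since *SELPLG*, the highest, had a median of 922 TPM. The genes that ran most against *SDS* were *TMEM128* (-0.88), the zinc finger gene *ZNF449* (-0.88), *WDR41* (-0.88), the zinc finger gene *PRDM4* (-0.87) and the centrin gene *CETN3* (-0.86), with medians between 3.84 and 41.7 TPM. Of 11032 genes compared with *SDS*, 182 had r of at least 0.8 and 84 had r of -0.8 or less.

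For *A2M* the corresponding numbers were 84 and 11. Its closest genes were *CHERP* (0.923), of the endoplasmic reticulum and its calcium stores, and *MYBPH* (0.920), a myosin-binding protein. *SND1* (0.918) encodes a nuclease-domain protein that binds RNA, *NUP98* (0.902) a nucleoporin, *CAPN1* (0.898) a calcium-dependent protease and *FLII* (0.893) an actin-binding protein of the gelsolin family. *ADAM19* (0.892) is a membrane metalloprotease, *SEMA4A* (0.891) a semaphorin of immune cells, and *CHI3L1* (0.890) a chitinase-like protein secreted by neutrophils and macrophages. *C10orf105* (0.892) completed the 10. *MYBPH* and *CHI3L1* are neighbours on chromosome 16, at chr16:760056-768350 and chr16:771323-781451, so they are not separate places in the genome.

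In the opposite direction *A2M* was followed by *ALG11* (-0.87), a mannosyltransferase, *TMEM242* (-0.86), *HIBADH* (-0.86), of valine breakdown, and *TES* (-0.84), a LIM protein of focal adhesions. No gene was among the first 10 of both *SDS* and *A2M*. Of the 10 closest to *A2M*, *CHERP* was the nearest to *SDS* at 0.778, and of the 10 closest to *SDS*, *RELA* was the nearest to *A2M* at 0.813.

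The genes beside *SDS* on chromosome 17 did not share its level. *PLBD2*, a lysosomal phospholipase-like protein, begins 2544 bases past *SDS* on the opposite strand and had a median of 310 TPM. It nevertheless followed *SDS* over the cows at r = 0.882, with a log2 fold change of -0.28 (edgeR p of 0.177 unadjusted, 0.999 adjusted). *PLBD2* also followed *A2M*, on another chromosome, at r = 0.832. *SDSL*, the paralogue of *SDS* that also cleaves serine and threonine, lies 13131 bases before it and had 41.7 TPM, r = 0.593 with *SDS* and a log2 fold change of -0.05 (edgeR p of 0.867 unadjusted, 0.999 adjusted). *SDSL* was thus far below *SDS* in every cow, its highest TPM being 83.1.

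Farther away, *LHX5*, a homeobox gene of the brain, had 1 count in all 13 cows together. *RBM19* (15.5 TPM, r = 0.607) and *DTX1* (16.3 TPM, r = 0.406) were low. *RASAL1*, which switches off Ras, had 3.22 TPM and ran against *SDS* at r = -0.60, with 7.47 ± 2.46 CPM (SD, n = 7) in high and 4.84 ± 1.21 (SD, n = 6) in low cows. The log2 fold change of 0.63 had an edgeR p of 0.0225 unadjusted and 0.999 adjusted.

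*A2M* sits among genes of natural killer and T cells, and none of those was close to it. *KLRB1* (9.51 TPM) and *KLRG1* (6.71 TPM), receptors of such lymphocytes, had r = -0.55 and -0.13 with *A2M*, and the activation marker *CD69* (30.2 TPM) had -0.64. *OVOS2*, an ovostatin and a relative of *A2M* with a thioester domain, lies 112259 bases before it and had a median of 0.179 TPM, with r = -0.13. On the other side *M6PR*, the receptor that carries enzymes to lysosomes, had 264 TPM, more than *A2M*, but r = 0.171, and the Polycomb gene *PHC1* had 23.5 TPM and r = 0.170.

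Other genes of serine and threonine metabolism stood below *SDS*, and none of those tested differed between the groups at an unadjusted p below 0.05. Of 23 listed, 19 are named in the tables and 16 were tested besides *SDS*: 4 had a log2 fold change above 0 and 12 below, with a median of -0.06 beside 0.01 for all genes. *SARS*, which loads serine on its tRNA, was the highest at 1231 TPM, followed *SDS* at r = 0.891 and had the smallest p (log2 fold change -0.31, edgeR p of 0.120 unadjusted). *PHGDH*, the entry to serine synthesis, had 673 TPM and r = 0.557, and *SHMT2*, which passes the carbon of serine to folate in mitochondria, 81.1 TPM and r = 0.405.

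The remaining steps stood lower still. *SPTLC2* (edgeR p of 0.127 unadjusted), which joins serine to palmitate, and *PSAT1* (edgeR p of 0.141 unadjusted), of serine synthesis, had log2 fold changes of -0.18 and -0.23. *SRR*, the racemase that makes D-serine and also has dehydratase activity, had 19.3 TPM, r = -0.28 with *SDS* and a log2 fold change of 0.07. On the TPM scale the median of *SDS*, 14232, therefore exceeded that of *PHGDH* as well as those of its relatives *SDSL* and *SRR*.

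Gluconeogenesis and amino acid breakdown, the pathway that *SDS* feeds in liver, showed an uneven picture. Of 15 genes, 11 were tested, none had an unadjusted p below 0.05, and 2 lay above and 9 below 0, with a median of -0.05. The liver isoenzymes *PCK1*, *G6PC* and *TAT* were too low to be tested. *LDHB*, a lactate dehydrogenase subunit, had 870 TPM, *GOT2*, the mitochondrial aspartate aminotransferase, 106, and the ubiquitous glucose-6-phosphatase *G6PC3* 51.0. The smallest unadjusted edgeR p values belonged to *PCK2* (0.152), the mitochondrial form of *PCK1*, *GOT2* (0.172) and the cytosolic *GOT1* (0.269), with log2 fold changes of -0.24, -0.14 and -0.12.

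The relatives and receptors of *A2M* were likewise without a difference that passed. Of 12 listed, 9 are named and 5 were tested besides *A2M*, with a median log2 fold change of -0.03 and none at an unadjusted p below 0.05. *PZP*, its closest paralogue in other mammals, was not analysed here. *LRP1*, the receptor that clears *A2M* with its proteases, had 9.46 TPM, r = 0.400 with *A2M* and a log2 fold change of 0.02. Its chaperone *LRPAP1* had 123 TPM and r = 0.574. *C3*, the thioester protein of complement, had 39.7 TPM, r = 0.672 and the smallest edgeR p of the list (0.392 unadjusted), before *OVOS2* (0.606) and *CPAMD8* (0.734).

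Of 22 protease inhibitors 14 are named and 10 were tested besides *A2M*, 5 above and 5 below 0, with a median of -0.03. *TIMP2* (306 TPM) and *TIMP1* (270 TPM), inhibitors of metalloproteases, stood above *A2M*, and *SERPINB6* (145 TPM) below it. None had an unadjusted p below 0.05, and among the smallest unadjusted edgeR p values were those of *SPINT2* (0.269), an inhibitor of serine proteases, and *TIMP3* (0.298).

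Proteases that *A2M* can trap stood below it in median TPM. Of 18 listed, 16 are named and 6 were tested, 4 above and 2 below 0, with a median of 0.03. *GZMB*, a granzyme of cytotoxic lymphocytes, had 80.1 TPM and a log2 fold change of 0.48 (edgeR p of 0.114 unadjusted). *PLAU*, the urokinase, had 34.0 TPM (edgeR p of 0.528 unadjusted), and *MMP9* had 17.4 TPM and a log2 fold change of -0.42 (edgeR p of 0.131 unadjusted). *MMP9*, which is in the neutrophil list as well, followed *A2M* at r = 0.711, while *GZMB* had 0.07.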

How the data were processed

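Whole blood RNA of 13 cows was sequenced on an Illumina platform by the study. The deposited values are counts: the authors summed reads over the exons of a gene name and left the whole numbers unscaled. The file headers name featureCounts 1.4.6-p3, Ensembl release 88 and UMD3.1, and no strand option. The submitters' processing notes name STAR 2.7.3, Subread 1.6.5 and ARS-UCD1.2. In the headers the alignment carries an animal number that matches the number in the table's name in 0 of 13 tables, and lies in a folder named for goats, so the group of each cow rests on the labels alone. Genes without a name share 1 entry (13.9% to 16.7% of the counts), which was left out.

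CPM after TMM, log2 CPM with a prior count of 2, and TPM from the exon length in the tables were derived from these counts. The groups were compared over the 11033 genes, *SDS* and *A2M* among them, that filterByExpr kept (at settings of 10 for the count and 15 for the total) with edgeR 4.0.16 in R 4.3.3 (robust quasi-likelihood fit, no covariate, Benjamini-Hochberg adjustment over all of them). The SE is the absolute log2 fold change over the root of F. DESeq2 1.42.0 with default settings, limma 3.58.1 (voom), RLE and upper-quartile factors, other filters, haemoglobin genes left out, covariates, the unnamed entry kept, a fit that is not robust and each cow left out in turn were alternatives. The interferon covariate was added after seeing the data. The fit was tested on simulated data. Correlations have permutation p from 100000 resamples, or exact ones within a group. The study selected single cows of the same herd, and the labels list them as separate samples. Nothing more is said of the cows' independence, so p-values measure the spread between these samples.

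*SDS* and *A2M*, the gene lists and the tests were chosen with earlier results of these data known. Named beside them are the 3 named genes on either side of each, the 10 genes with the highest and the 5 with the lowest r to each, markers of each list with the largest r, the neutrophil, monocyte, macrophage and eosinophil lists by counts, and of each pathway list the 3 with the highest TPM, the 3 with the smallest p and chosen relatives. Genes named beyond this rule (*S100A9*, *CD3E*, *CD79A*, *HBB*, *S100A8*, *S100A12*, *CD14*, *CX3CR1*, *CD2*, *GATA1*, *CTSW*, *HPD*, *TDO2*, and *MMP25* and *MMP9*) were chosen after their values were seen. *MMP9*, *GZMB*, *SERPINA1*, *PCK1*, *TAT* and *G6PC* stand in 2 lists each. No sequence of the members was used here, and a few genes that the rule names are not reported here.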

Additional observations from a re-analysis of the deposited data

Results flagged for a closer look

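Over 18 measures (the levels of *SDS* and *A2M*, their ratio and 15 list scores), 72 comparisons of the highest or lowest cow of a group with its nearest neighbour were made. Of these, 2 passed Dixon's 95% critical value, a number that chance alone can give among so many. High cow 7 had a plasma cell score of 0.669, with the next high cow at -0.06 and the lowest at -0.39, a gap of 0.688 of the range against a critical value of 0.568. High cow 5 had an interferon response score of 1.05, with the next high cow at -0.20 and the lowest at -0.93, a gap of 0.630 of the range. The levels of *SDS* and *A2M* themselves held no such cow in either group. In cow 5 *SDS* stood at 13790 CPM and *A2M* at 436 CPM, within the range of the other high cows. Without cow 5, the correlation of *SDS* with the interferon response score was 0.713 over 12 cows.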

How the results depend on the processing

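The lower *SDS* in the high group kept its direction in all 26 alternatives, with a log2 fold change of -0.66 (without high replicate 2) to -0.43 (without low replicate 10, where the edgeR p was 0.0515 unadjusted) when 1 cow was left out and -0.56 to -0.33 otherwise. Its unadjusted p was below 0.05 in 23 of them and its adjusted p was between 0.893 and 1. For *A2M* the range without 1 cow was -0.40 (without high replicate 2, edgeR p of 0.0442 unadjusted) to -0.10 (without low replicate 8), and 24 of 26 alternatives kept the direction. It turned to 0.0846 with the log2 haemoglobin share and to 0.01149 with the interferon response score as a covariate, and the cause was not tested. The correlation of *SDS* with the interferon response score was 0.603 to 0.713 without 1 cow, and Spearman's rho of 0.7747 passed after adjustment where Pearson's r did not. That of *A2M* with the neutrophil score was 0.716 to 0.837 without 1 cow, and it passed after adjustment as Spearman's rho (0.7857), with RLE factors (0.7855) and without low replicate 9 (0.8188), 11 (0.8367) or 13 (0.8136). It did not pass in any other of its 19 alternatives. Among these were CPM without TMM (0.7051, adjusted permutation p of 0.222), the fit without high replicate 7 (0.7202, adjusted permutation p of 0.24) and each group alone. *SDS* and *A2M* correlated at 0.643 to 0.760 without 1 cow, and at 0.4537 in the low group alone, which holds fewer cows. The median CPM of *SDS* was 11366 with the unnamed entry in the totals and 13452 without TMM, and that of *A2M* 476 and 559. No paired analysis was possible because the groups share no replicate numbers.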
